A study of Mus musculus with 12 samples.

Results

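The genes described here are 10 members of the activin and transforming growth factor beta (TGF-beta) pathway: Inhba, Tgfb1, Tgfb2, Tgfb3, Tgfbr1, Tgfbr2, Smad3, Smad6, Smad7 and Tgfbi. They were chosen by symbol from the deposited gene matrix, which lists 53465 genes, and each of the 10 symbols was found once. All 10 passed the filter on low values and were among the 20419 genes tested.

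The series, whose title concerns BHLHE40 in the inflammatory response of macrophages, holds 12 bulk RNA libraries labelled as peritoneal macrophages of C57BL/6 mice at an age of 10 weeks. The 4 groups of 3 libraries are Lyz2Cre control, Lyz2Cre LPS, Lyz2Cre-BHLHE40-Fl control and Lyz2Cre-BHLHE40-Fl LPS, so all 12 carry the Lyz2Cre label. Lyz2Cre denotes the Cre recombinase under the myeloid lysozyme 2 gene, Fl is read as a floxed allele of Bhlhe40, and LPS is bacterial lipopolysaccharide, a ligand of Toll-like receptor 4. The dose and time of LPS, the zygosity of the floxed allele and the number of mice per library were not in the sources used here.

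Libraries held between 20489417 and 29354869 reads assigned to genes. Values are normalised reads, that is, reads of a gene divided by the deposited library factor, with group means shown ± SD over n = 3 libraries. A log2 change is a difference of log2(value + 1) with its SE from limma, and a fold is a ratio of group means. A gene passed the test, and is said to have risen, fallen or differed, where the Benjamini-Hochberg adjusted p of limma over all tested genes was under 0.05. The labels do not state whether replicates are separate animals or cultures, so the p-values cover only the spread among these libraries. In bulk RNA, fewer cells of a type and less RNA per cell cannot be told apart.

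Bhlhe40 itself was read first, as a check of the labels. It stood at 4886.1, 4737.1 and 5306.2 normalised reads in Lyz2Cre controls and at 8045.7, 7617 and 8015.5 in Lyz2Cre-BHLHE40-Fl controls, higher and not lower under the label that names the gene (limma adjusted p = 6.32e-06). The LPS libraries had 2544.2, 2212.4 and 2644 in Lyz2Cre and 1955.6, 2415 and 2326.7 in Lyz2Cre-BHLHE40-Fl. The antisense gene 0610040F04Rik touches exons of Bhlhe40 on the other strand, and the strand setting of the counting was not known. A value for the whole gene does not show the loss of single exons, and every difference between genotypes below is one between libraries labelled that way. Macrophage markers were present in all libraries, with 8 of 8 above 0 in each group and a summed level of 119400 to 131600 in Lyz2Cre controls, 161500 to 168800 in Lyz2Cre LPS, 64660 to 74000 in Lyz2Cre-BHLHE40-Fl controls, with Lyz2Cre-BHLHE40-Fl LPS at 90200 to 94260. Between labels 1 of the 8 was higher and 6 were lower in Lyz2Cre-BHLHE40-Fl, in both treatments. Their median log2 difference was -1.75 in controls and -1.02 with LPS, and Cd68 was the largest part of each sum. Markers of mesothelium, the lining of the abdominal cavity, moved with the genotype label, 10 of 11 higher and 1 lower in libraries labelled Lyz2Cre-BHLHE40-Fl both without and with LPS. Of these, Upk3b, Upk1b, Msln, Lrrn4, Krt8, Krt18, Krt19, Muc16 and Bnc1 passed the filter on low values only through the Lyz2Cre-BHLHE40-Fl libraries. Their part of the count could not have gone the other way. The summed mesothelial list was 12340 to 14440 in Lyz2Cre controls, 40810 to 40970 in Lyz2Cre LPS, 6991 to 7940 in Lyz2Cre-BHLHE40-Fl controls, with Lyz2Cre-BHLHE40-Fl LPS at 26300 to 29060, most of it Pdpn, which activated macrophages also express. Without Pdpn, a choice made after the values were seen, the other 10 genes summed to 10.1 to 23.4, 7.8 to 29.2, 2098 to 2778 and 1375 to 1743 in the same order of groups. Upk3b, Msln and Krt18 were at 0 in all Lyz2Cre controls, and Upk3b, Upk1b, Krt8 and Muc16 in all Lyz2Cre LPS libraries. Of 8 fibroblast markers, 6 were higher and 2 lower in the Lyz2Cre-BHLHE40-Fl libraries in both treatments. The 8 summed to 35100 to 50180 in Lyz2Cre controls, 32710 to 40860 in Lyz2Cre LPS, 20990 to 25920 in Lyz2Cre-BHLHE40-Fl controls, with Lyz2Cre-BHLHE40-Fl LPS at 22240 to 29380, none of the 8 being at 0 in a whole group. Without Fn1, also left out after the values were seen, the other 7 summed to 1975 to 2136, 3178 to 4659, 9536 to 12090 and 10800 to 14350. The part of these cells in the differences between genotype labels was not tested. Lyz2Cre-BHLHE40-Fl LPS replicate 1 stood apart from its group in the share of reads from mitochondrial genes, at 0.756% against 1.92% and 1.89%, and the differences reported that gained or lost a call without it, or that passed and moved by over 1.5 times, are given with and without it.

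Ligands of the TGF-beta family bind pairs of type II and type I receptor kinases at the cell surface. The type I receptor then phosphorylates SMAD2 and SMAD3, which enter the nucleus with SMAD4 and act on target genes, among them those of the inhibitory SMADs that dampen the signal. Activin A, a dimer of the subunit encoded by Inhba, is known to be secreted by macrophages stimulated through Toll-like receptors, while TGF-beta is known for restraining macrophage inflammatory genes and for shaping tissue-resident macrophages.

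The start regions of Tgfb2, Inhba and Tgfbi are shown because the last 2 were much lower in libraries labelled Lyz2Cre-BHLHE40-Fl, while Tgfb2 was higher there and holds the letters CACGTG, the E-box bound by BHLHE40 and related factors. Each runs 5′ to 3′ on the gene's strand from 250 bases before to 50 bases after the RefSeq start (GRCm38.p6), at chr1:186705940-186706239 (minus strand) for Tgfb2, chr13:16011601-16011900 (plus strand) for Inhba and chr13:56609336-56609635 (plus strand) for Tgfbi. Capitals mark CACGTG and the short SMAD-binding letters CAGAC, which appear as GTCTG when they lie on the other strand.
Tgfb2: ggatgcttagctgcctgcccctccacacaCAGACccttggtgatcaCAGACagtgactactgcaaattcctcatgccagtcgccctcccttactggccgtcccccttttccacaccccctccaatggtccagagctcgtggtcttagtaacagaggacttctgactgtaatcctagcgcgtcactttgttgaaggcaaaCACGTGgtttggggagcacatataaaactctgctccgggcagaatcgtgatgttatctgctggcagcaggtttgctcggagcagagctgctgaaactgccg
Inhba: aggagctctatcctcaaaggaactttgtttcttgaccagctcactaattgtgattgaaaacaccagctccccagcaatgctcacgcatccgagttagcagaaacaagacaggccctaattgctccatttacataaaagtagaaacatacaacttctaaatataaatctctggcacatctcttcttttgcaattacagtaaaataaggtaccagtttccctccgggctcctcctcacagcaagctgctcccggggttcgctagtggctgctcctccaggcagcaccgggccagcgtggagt
Tgfbi: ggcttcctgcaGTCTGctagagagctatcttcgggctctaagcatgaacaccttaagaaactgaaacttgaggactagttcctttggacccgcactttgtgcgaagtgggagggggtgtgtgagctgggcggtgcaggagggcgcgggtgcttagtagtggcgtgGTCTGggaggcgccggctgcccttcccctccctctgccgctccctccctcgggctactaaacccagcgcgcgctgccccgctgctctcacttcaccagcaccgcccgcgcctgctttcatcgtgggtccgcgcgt

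Of the 10 members, 8 had a RefSeq window; Tgfb3 and Smad7 had none. CACGTG was found in 1 of the 8, beginning 51 bases before the start of Tgfb2, and in 7.15% of 32851 RefSeq windows of 300 bases. CAGAC was found in 4 of the 8 (Tgfb2, Tgfbi, Tgfbr2 and Tgfbr1) and in 49.6% of all windows, both strands being searched. Tgfbr1 has a second RefSeq start within the gene, and its match lies in that window (chr4:47385966-47386265), not in the one at the gene's start. In Tgfb2 it began 221 and 204 bases before the start and in Tgfbi 239 and 85 bases before it. The AP-1 letters TGANTCA were found in 0 of the 8 and in 7.81% of all windows. The NF-kB consensus was found in Tgfb1 alone among the 8, beginning 140 bases before its start, and in 8.46% of all windows. The searched motifs did not overlap in the windows printed, and a match describes letters only.

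LPS changed most of the 10 genes in Lyz2Cre libraries, where 4 rose and 4 fell (1 and 5 with equal library totals). With the deposited scaling the test passed 48.9% of all genes there (25.0% higher and 23.9% lower). In Lyz2Cre-BHLHE40-Fl libraries 2 members rose and 4 fell with LPS, against 50.5% of all genes passing (24.9% higher and 25.6% lower). Between genotype labels, 2 members were higher and 3 lower in Lyz2Cre-BHLHE40-Fl controls than in Lyz2Cre controls (31.6% of all genes passing, 15.0% higher and 16.6% lower). With LPS 4 were higher and 4 lower (37.4% of all genes passing, 17.7% higher and 19.8% lower). The LPS change itself differed between genotype labels for 4 members, 3 with a higher and 1 with a lower value in Lyz2Cre-BHLHE40-Fl, where 18.8% of all genes passed (9.52% higher and 9.31% lower). The median log2 change of the 10 was 0.144 for LPS in Lyz2Cre, -0.22 for LPS in Lyz2Cre-BHLHE40-Fl, 0.164 for genotype in controls and 0.0183 for genotype with LPS. Over all tested genes it was 0, -0.0533, 0.00127 and -0.0184. The groups did not overlap between libraries for 9, 6, 7 and 8 members in these comparisons, against 54.5%, 55.6%, 41.3% and 45.9% of all genes.

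**Figure D1:**
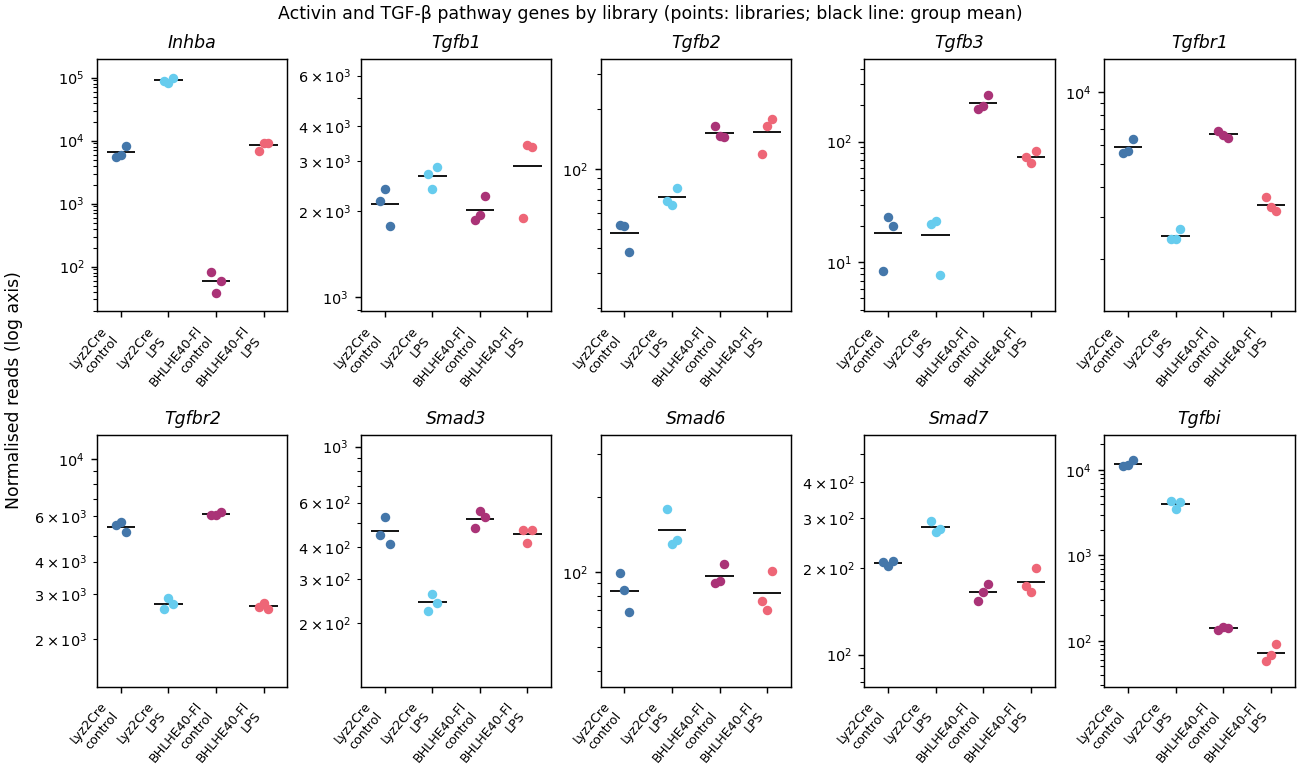
Normalised reads of the 10 members in each of the 12 libraries on a log axis, 1 point per library, with the 4 groups side by side and a line at each group mean, BHLHE40-Fl standing for Lyz2Cre-BHLHE40-Fl on the axes. Inhba spans the widest range, from 38.7 in a Lyz2Cre-BHLHE40-Fl control to 98433.1 in a Lyz2Cre LPS library, and for Tgfbi no 2 groups overlap.

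The deposited scaling bears on the direction of the smaller changes. Mean totals per library were 22693602 normalised reads in Lyz2Cre controls, 37605645 in Lyz2Cre LPS, 20073802 in Lyz2Cre-BHLHE40-Fl controls, with Lyz2Cre-BHLHE40-Fl LPS at 30832914. Libraries brought to equal totals moved the median of all genes to -0.567 for LPS in Lyz2Cre, -0.557 for LPS in Lyz2Cre-BHLHE40-Fl, 0.171 for genotype in controls and 0.22 for genotype with LPS. The members then counted 1 higher and 5 lower, 1 higher and 8 lower, 5 higher and 2 lower, and 5 higher and 4 lower in these comparisons, and 4 higher and 1 lower for the interaction. With quantile normalization 5 were higher and 3 lower for genotype in controls, and 3 higher and 2 lower for the interaction. Shares of all genes passing were counted only for the main test with the deposited scaling. Counts under other scalings and settings, here and below, thus have no such share beside them and describe the members alone.

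**Figure D2:**
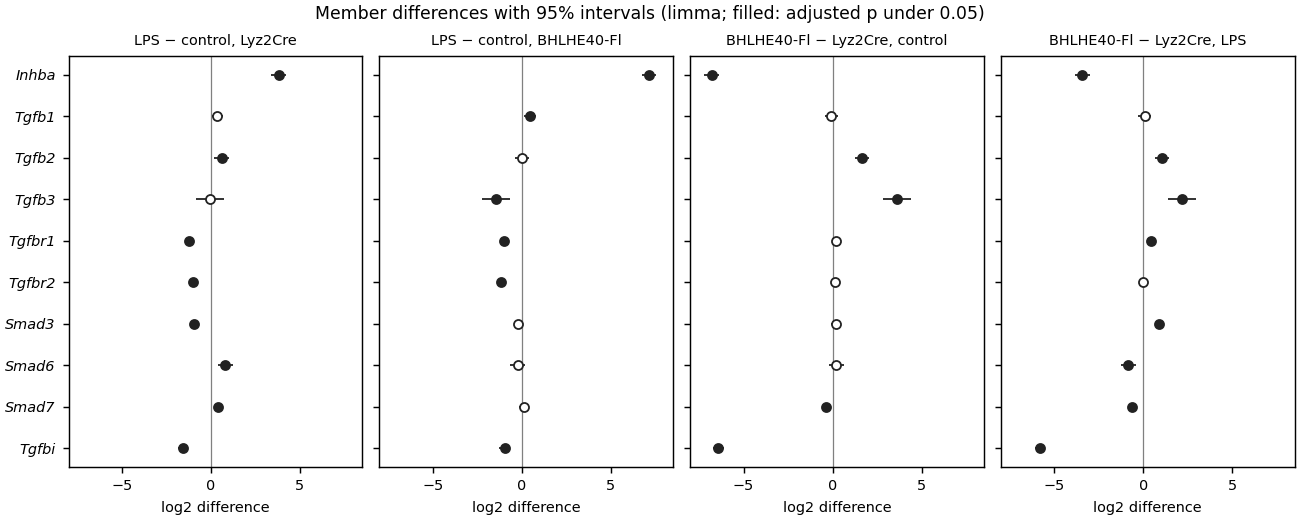
Log2 change of each member with its 95% interval from limma in the 4 comparisons of LPS and genotype with the deposited scaling, filled where the adjusted p was under 0.05. Inhba lies far to the right for LPS and Inhba and Tgfbi far to the left for genotype, while the directions of Tgfb1, Tgfb2 and Smad7 with LPS turned when libraries were brought to equal totals.

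Inhba, which encodes the subunit of activin A, had the widest span of the 10 genes. The gene lies on chromosome 13 from 16011851 to 16031621 (mm10, plus strand, ENSMUSG00000041324, 5 merged exons). It stood at 5532.7, 5905.1 and 8301.8 normalised reads in Lyz2Cre controls and at 89541.3, 82481.1 and 98433.1 with LPS. Lyz2Cre-BHLHE40-Fl libraries had 81.4, 38.7 and 59.4 in controls and 6940, 9100.2 and 9046.5 with LPS. Every LPS library was above every control of its own label, and the Lyz2Cre-BHLHE40-Fl libraries with LPS overlapped the untreated Lyz2Cre controls, 1 of the 3 lying within their range and the other 2 above it. Inhba rose 13.7-fold in Lyz2Cre (log2 change 3.80 ± 0.20 SE, limma adjusted p = 1.56e-11). In Lyz2Cre-BHLHE40-Fl it rose 140.0-fold (7.15 ± 0.20, limma adjusted p = 1.72e-15). The LPS change was larger by 3.36 ± 0.28 log2 units in Lyz2Cre-BHLHE40-Fl (95% interval 2.77 to 3.94, limma adjusted p = 1.12e-07). Against Lyz2Cre, the level was 110.0-fold lower in controls (log2 difference -6.80 ± 0.20, limma adjusted p = 2e-14) and 10.8-fold lower with LPS (-3.44 ± 0.20, limma adjusted p = 2.53e-10). So the larger rise started from a lower level and reached a lower one. The pseudogene B230303A05Rik and the antisense gene Gm48444 touch exons of Inhba on the other strand. B230303A05Rik ranged from 1.5 to 9.2 in Lyz2Cre controls, 66.7 to 95.2 in Lyz2Cre LPS, 0 to 2.2 in Lyz2Cre-BHLHE40-Fl controls, with Lyz2Cre-BHLHE40-Fl LPS at 13.8 to 30.7. The strand setting of the counting was not in the sources used here, so reads of overlapping genes cannot be told apart.

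Per kilobase of exon, Inhba was the most abundant of the 10 genes in LPS libraries of both labels and the least abundant in Lyz2Cre-BHLHE40-Fl controls. Its mean level was 1030.0 normalised reads per kilobase in Lyz2Cre controls, 14110.0 in Lyz2Cre LPS, 9.364 in Lyz2Cre-BHLHE40-Fl controls, with Lyz2Cre-BHLHE40-Fl LPS at 1309.0. Tgfb1, the main TGF-beta ligand gene of macrophages, had 419.5, 527.8, 401.8 and 573.6 on the same scale. In Lyz2Cre controls Tgfbi led, at 3167.0 per kilobase, and in Lyz2Cre-BHLHE40-Fl controls Tgfbr1 led, at 1016.0.

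Tgfb1 varied little beside Inhba. Its position is chromosome 7 from 25687002 to 25705077 (mm10, plus strand, ENSMUSG00000002603, 8 merged exons). It stood at 2175.5, 2390.4 and 1778.8 normalised reads in Lyz2Cre controls, at 2717.9, 2391.8 and 2874.2 in Lyz2Cre LPS, at 1865.5, 1946.9 and 2265.3 in Lyz2Cre-BHLHE40-Fl controls, with Lyz2Cre-BHLHE40-Fl LPS at 1888.9, 3431.5 and 3356.1. The groups of the 2 genotype labels overlapped in both treatments, and Lyz2Cre-BHLHE40-Fl LPS replicate 1 lay within the range of its controls. The LPS change passed the test in Lyz2Cre-BHLHE40-Fl (log2 change 0.47 ± 0.17 SE, limma adjusted p = 0.03) and was -0.15 with equal library totals. Leaving out LPS replicate 1 raised it to 0.75 (limma adjusted p = 3.43e-05). It no longer passed without Lyz2Cre-BHLHE40-Fl control replicate 1 or 2 (limma adjusted p = 0.0977 and 0.0748) or without LPS replicate 2 or 3 of that label (0.163 and 0.152), nor with quantile normalization (0.934) or robust variances (0.12). In Lyz2Cre the log2 change was 0.34 ± 0.17 (limma adjusted p = 0.116), turning to -0.39 with equal library totals and to -0.09 with quantile normalization. It passed without Lyz2Cre-BHLHE40-Fl LPS replicate 1 (limma adjusted p = 0.0107) and when only the compared groups were fitted (0.0179). Without the same replicate so did the difference between genotype labels with LPS (0.35, limma adjusted p = 0.0216, against 0.07 ± 0.17 and 0.784 with all libraries). In controls the genotype difference was -0.06 (95% interval -0.42 to 0.30, limma adjusted p = 0.854).

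Tgfb2, a second TGF-beta ligand gene, was low and was higher in libraries labelled Lyz2Cre-BHLHE40-Fl. The gene spans chromosome 1 from 186622792 to 186705989 (mm10, minus strand, ENSMUSG00000039239, 10 merged exons), and its window with CACGTG is printed above. It stood at 52.3, 51.9 and 38.5 normalised reads in Lyz2Cre controls and at 69.5, 66.2 and 80.9 with LPS. Under the Lyz2Cre-BHLHE40-Fl label the values were 165, 146.8 and 144.9 in controls and 119.4, 164.1 and 179.1 with LPS. All 6 Lyz2Cre-BHLHE40-Fl libraries lay above all 6 Lyz2Cre libraries. The difference was 3.2-fold in controls (log2 difference 1.67 ± 0.19 SE, limma adjusted p = 1.55e-06) and 2.14-fold with LPS (1.07 ± 0.19, limma adjusted p = 0.00021). The LPS rise in Lyz2Cre (1.52-fold, 0.60 ± 0.19, limma adjusted p = 0.0134) changed sign with equal library totals, to -0.12. It was lost when Lyz2Cre control replicate 3 or Lyz2Cre LPS replicate 3 was left out (limma adjusted p = 0.0658 and 0.0578) and with edgeR on recovered reads (0.0668). In Lyz2Cre-BHLHE40-Fl the LPS change had a 95% interval of -0.40 to 0.40 (limma adjusted p = 1.0), but with equal library totals it was -0.62 and passed (limma adjusted p = 0.00928).

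Tgfb3, the third TGF-beta ligand gene, was also higher in libraries labelled Lyz2Cre-BHLHE40-Fl. It spans chromosome 12 from 86056745 to 86079041 (mm10, minus strand, ENSMUSG00000021253, 7 merged exons). It stood at 8.5, 23.5 and 20.1 normalised reads in Lyz2Cre controls and at 20.8, 22.1 and 7.8 with LPS. In Lyz2Cre-BHLHE40-Fl it stood at 186.1, 198.2 and 241.3 in controls and at 74.9, 65.9 and 82.7 with LPS. The Lyz2Cre groups overlapped each other, and both Lyz2Cre-BHLHE40-Fl groups lay above them. The difference between labels was 12-fold in controls (log2 difference 3.61 ± 0.37 SE, limma adjusted p = 4.6e-07) and 4.41-fold with LPS (2.19 ± 0.37, limma adjusted p = 0.000137). LPS lowered Tgfb3 2.8-fold in Lyz2Cre-BHLHE40-Fl (-1.47 ± 0.37, limma adjusted p = 0.00291). In Lyz2Cre the change was -0.05 ± 0.37 (limma adjusted p = 0.94). The interaction of -1.42 ± 0.53 did not pass (limma adjusted p = 0.0718), but did when Lyz2Cre control replicate 2 (0.0395) or LPS replicate 3 of that label (0.00795) was left out, with a pseudocount of 5 (0.0308) and with edgeR (edgeR adjusted p = 0.0307). Mesothelium and fibroblasts can make TGF-beta ligands, and 10 of 11 markers of the first and 6 of 8 of the second were higher in the same libraries as Tgfb2 and Tgfb3. The summed levels of both whole lists were lower there, and higher only without Pdpn and Fn1, as given above; the part of these cells was not tested. Ttll5 touches exons of Tgfb3 on the other strand and ranged from 257.1 to 273.9 in Lyz2Cre controls, 73.1 to 162.6 in Lyz2Cre LPS, 278.7 to 360.9 in Lyz2Cre-BHLHE40-Fl controls, with Lyz2Cre-BHLHE40-Fl LPS at 129 to 147.5.

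Both TGF-beta receptor genes fell with LPS in both genotype labels. Tgfbr1, which encodes the type I receptor kinase, lies on chromosome 4 from 47353222 to 47414931 (mm10, plus strand, ENSMUSG00000007613, 13 merged exons). It stood at 5572.7, 5639.3 and 6372.3 normalised reads in Lyz2Cre controls and at 2419.2, 2431.8 and 2667.3 with LPS. The Lyz2Cre-BHLHE40-Fl values were 6857.8, 6632.5 and 6432.8 in controls and 3636.2, 3298.2 and 3177 with LPS. No 2 of the 4 groups overlapped, the order from high to low being Lyz2Cre-BHLHE40-Fl control, Lyz2Cre control, Lyz2Cre-BHLHE40-Fl LPS and Lyz2Cre LPS. Tgfbr1 fell 2.34-fold in Lyz2Cre (log2 change -1.22 ± 0.07 SE, limma adjusted p = 1.08e-10) and 1.97-fold in Lyz2Cre-BHLHE40-Fl (-0.98 ± 0.07, limma adjusted p = 2.22e-09). With LPS it was 1.34-fold higher in Lyz2Cre-BHLHE40-Fl (0.43 ± 0.07, limma adjusted p = 0.000146). The control difference of 0.18 did not pass (95% interval 0.03 to 0.34, limma adjusted p = 0.067). It passed without Lyz2Cre control replicate 3 (0.0178) or Lyz2Cre-BHLHE40-Fl LPS replicate 1 (0.0439), and with equal library totals (0.36) and quantile normalization (0.39). The interaction of 0.24 did not pass (limma adjusted p = 0.117), but did with equal library totals (0.0187) and edgeR (edgeR adjusted p = 0.039).

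Tgfbr2 encodes the type II receptor kinase that binds TGF-beta first. It lies on chromosome 9 from 116084293 to 116175360 (mm10, minus strand, ENSMUSG00000032440, 8 merged exons). It stood at 5518.9, 5667.6 and 5203.2 normalised reads in Lyz2Cre controls and at 2626.2, 2878.7 and 2740.4 with LPS. Lyz2Cre-BHLHE40-Fl controls had 6035.5, 6042 and 6195.8, and LPS libraries of that label 2663.7, 2760 and 2612.3. Controls lay above LPS libraries throughout, and the LPS groups of the genotype labels overlapped. The fall was 1.99-fold in Lyz2Cre (log2 change -0.99 ± 0.06 SE, limma adjusted p = 1.83e-10) and 2.27-fold in Lyz2Cre-BHLHE40-Fl (-1.19 ± 0.06, limma adjusted p = 1.23e-11). Between labels the log2 difference was 0.16 in controls (95% interval 0.03 to 0.29, limma adjusted p = 0.0596) and -0.04 with LPS (95% interval -0.17 to 0.09, limma adjusted p = 0.688). With equal library totals the second was 0.25 and passed (limma adjusted p = 0.00225). The control difference passed with a filter at 5 (limma adjusted p = 0.0424), with equal library totals (0.33) and with quantile normalization (0.38). The interaction of -0.19 (limma adjusted p = 0.141) passed with quantile normalization (0.038). Per kilobase of exon the receptor genes lay close together, at 897.1 for Tgfbr1 and 667.3 for Tgfbr2 in Lyz2Cre controls.

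Smad3, the receptor-activated signal transducer, fell with LPS in Lyz2Cre, and its LPS change differed between labels. It lies on chromosome 9 from 63646767 to 63757994 (mm10, minus strand, ENSMUSG00000032402, 13 merged exons). It stood at 446.5, 528.5 and 412.9 normalised reads in Lyz2Cre controls and at 223.7, 260.7 and 241.1 with LPS. In Lyz2Cre-BHLHE40-Fl it stood at 475.5, 557.4 and 524.7 in controls and at 469.3, 414 and 467.1 with LPS. The Lyz2Cre LPS libraries were the 3 lowest of the 12. The fall in Lyz2Cre was 1.91-fold (log2 change -0.93 ± 0.11 SE, limma adjusted p = 1.02e-06). In Lyz2Cre-BHLHE40-Fl the change was -0.20 ± 0.11 (limma adjusted p = 0.132), and it passed with equal library totals (-0.82) and quantile normalization (-0.28, limma adjusted p = 0.0463). The changes differed by 0.72 ± 0.15 log2 units (95% interval 0.40 to 1.05, limma adjusted p = 0.0025). With LPS Smad3 was 1.86-fold higher in Lyz2Cre-BHLHE40-Fl than in Lyz2Cre (0.89 ± 0.11, limma adjusted p = 3.75e-06). In controls the difference was 0.17 ± 0.11 (limma adjusted p = 0.272), passing with equal library totals (0.35) and quantile normalization (0.30).

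Smad6, an inhibitory SMAD gene best known for dampening BMP signals, rose with LPS in Lyz2Cre with the deposited scaling. It lies on chromosome 9 from 63953076 to 64022059 (mm10, minus strand, ENSMUSG00000036867, 6 merged exons), 195.1 kb from Smad3. It stood at 99.3, 84.3 and 68.7 normalised reads in Lyz2Cre controls and at 179.2, 129.7 and 135.3 with LPS. Lyz2Cre-BHLHE40-Fl libraries had 90.1, 91.6 and 108 in controls and 76.1, 70.5 and 101.4 with LPS. Here the Lyz2Cre LPS libraries were the 3 highest of the 12, and the other 3 groups overlapped. Smad6 rose 1.76-fold in Lyz2Cre (log2 change 0.81 ± 0.20 SE, limma adjusted p = 0.00202), a change of 0.09 with equal library totals (limma adjusted p = 0.751). In Lyz2Cre-BHLHE40-Fl the change was -0.23 ± 0.20 (limma adjusted p = 0.348), and -0.85 with equal library totals (limma adjusted p = 0.00147). The LPS change was lower by 1.04 log2 units in Lyz2Cre-BHLHE40-Fl (-1.04 ± 0.28, 95% interval -1.63 to -0.46, limma adjusted p = 0.0121). With LPS the level was 1.79-fold lower there (-0.84 ± 0.20, limma adjusted p = 0.00238), and in controls the difference was 0.21 (limma adjusted p = 0.48). Smad3 and Smad6 thus had interactions of opposite sign.

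Smad7, the inhibitory SMAD that binds TGF-beta and activin type I receptors, lies on chromosome 18 (ENSMUSG00000025880, 6 merged exons) and was lower in libraries labelled Lyz2Cre-BHLHE40-Fl. It stood at 210.2, 203.5 and 212.7 normalised reads in Lyz2Cre controls and at 293.2, 267.6 and 275.3 with LPS. The Lyz2Cre-BHLHE40-Fl libraries held 154.1, 165 and 176.8 in controls and 173.2, 165.6 and 200.4 with LPS. Both Lyz2Cre groups lay above both Lyz2Cre-BHLHE40-Fl groups, which overlapped each other. The difference was 1.55-fold with LPS (log2 difference -0.63 ± 0.12 SE, limma adjusted p = 0.000283). In controls it was 1.26-fold (-0.34 ± 0.12, limma adjusted p = 0.0338), lost without any 1 of the Lyz2Cre controls 1, 2 and 3 (limma adjusted p = 0.0787, 0.0579 and 0.0778), without Lyz2Cre-BHLHE40-Fl control 1 or 2 (0.105 and 0.0689), with the compared groups alone (0.0531) and with equal library totals (0.335). The rise with LPS in Lyz2Cre (1.33-fold, 0.41 ± 0.12, limma adjusted p = 0.00614) turned to -0.31 with equal library totals (limma adjusted p = 0.0362). In Lyz2Cre-BHLHE40-Fl the LPS change was 0.12 ± 0.12 (limma adjusted p = 0.434), and it passed in opposite directions under the other scalings, at -0.50 with equal library totals (0.00174) and 0.29 with quantile normalization (0.0433). The interaction was -0.30 ± 0.16 (limma adjusted p = 0.248).

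Tgfbi, which encodes a secreted matrix protein named for its induction by TGF-beta, was far lower in libraries labelled Lyz2Cre-BHLHE40-Fl with either treatment. It lies on chromosome 13 from 56609523 to 56639562 (mm10, plus strand, ENSMUSG00000035493, 17 merged exons). It stood at 11224.8, 11578.5 and 13026.8 normalised reads in Lyz2Cre controls and at 4354.8, 3458 and 4238.2 with LPS. In Lyz2Cre-BHLHE40-Fl it stood at 133.8, 143.7 and 141.3 in controls and at 57.3, 67.5 and 92.7 with LPS. The lowest Lyz2Cre library was far above the highest Lyz2Cre-BHLHE40-Fl library, and within each label the LPS libraries lay below the controls. Tgfbi was 85.6-fold lower in Lyz2Cre-BHLHE40-Fl controls (log2 difference -6.41 ± 0.13 SE, limma adjusted p = 3.39e-16) and 55.4-fold lower with LPS (-5.79 ± 0.13, limma adjusted p = 2.36e-15). Over the same comparisons the summed macrophage markers ran from 64660 to 74000 against 119400 to 131600, and from 90200 to 94260 against 161500 to 168800. Cd68, the largest part of these sums, held 39382.9 to 47468.6 against 42770.3 to 49283.9 in controls, overlapping between labels. In the same controls Adgre1 held 5369.7 to 5854.1 against 30005.6 to 31292.0, and Itgam 1110.9 to 1274.4 against 9547.1 to 9965.0. Mrc1 went the other way, at 3969.6 to 4886.9 against 2329.5 to 2613.3. The median log2 difference of the 8 markers was -1.75 in controls and -1.02 with LPS, 1 being higher and 6 lower in each. The part of macrophage content in Tgfbi was not tested. LPS lowered Tgfbi 2.97-fold in Lyz2Cre (-1.58 ± 0.13, limma adjusted p = 1.46e-08) and 1.93-fold in Lyz2Cre-BHLHE40-Fl (-0.96 ± 0.13, limma adjusted p = 7.67e-06). The interaction of 0.61 ± 0.19 (limma adjusted p = 0.0301) was lost without Lyz2Cre control replicate 3 (0.0681), Lyz2Cre LPS replicate 2 (0.092), Lyz2Cre-BHLHE40-Fl control replicate 1 or 3 (0.0606 and 0.0535) or Lyz2Cre-BHLHE40-Fl LPS replicate 3 (0.0627).

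Inhba and Tgfbi thus shared a strong lowering with the Lyz2Cre-BHLHE40-Fl label and moved in opposite directions with LPS. Over the 12 libraries, which share the 4 groups, their log2 values correlated with Pearson r = 0.516. The most negative correlation of Tgfbi was with Tgfb2 (r = -0.951), and Tgfb2 and Tgfb3 had r = 0.808, all given as descriptions of 12 libraries.

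For 6 members the 3 other genes with the most similar pattern were found among 10760 genes, by Pearson r of log2 values over these libraries. Inhba was most like H2-M2 (r = 0.997), a nonclassical MHC class I gene, Ifnar2 (r = 0.996), a type I interferon receptor gene, and Smurf1 (r = 0.996), a ubiquitin ligase gene of the same pathway. H2-M2 had group means of 3091.0 and 33200.0 in Lyz2Cre and 64.2 and 3603.0 in Lyz2Cre-BHLHE40-Fl, control first, so its order of groups was that of Inhba. Group means ran only from 1947 to 7000 for Ifnar2 and from 931.6 to 2406 for Smurf1, since r does not measure the size of a change. Tgfb1 was most like Rnf10 (r = 0.952), Bag6 (r = 0.933) and Zfp335 (r = 0.932). Tgfbi was most like Tm7sf2, a sterol reductase gene, Aldoc, an aldolase gene, and Gstm2, a glutathione transferase gene, each with r = 0.995. Aldoc had means of 2052.0 and 1480.0 in Lyz2Cre and 219.7 and 150.0 in Lyz2Cre-BHLHE40-Fl. Tgfbr1 was most like Xrcc6 (r = 0.995), a DNA end-binding gene, Akap11 (r = 0.994) and Dnajc9 (r = 0.993). Smad3 was most like the immediate early gene Fos (r = 0.976), Fam219b (r = 0.972) and Txnrd2 (r = 0.969). Fos had means of 472.5 and 159.4 in Lyz2Cre and 475.2 and 409.8 in Lyz2Cre-BHLHE40-Fl, the same lone low group as Smad3. Smad7 was most like Filip1 (r = 0.976), Rapgef1 (r = 0.966) and the histone gene Hist1h4d (r = 0.965).

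Beside the 10 genes, 60 other genes of the pathway were listed by role, of which 52 passed the filter. With LPS 28 rose and 9 fell in Lyz2Cre, and 24 rose and 9 fell in Lyz2Cre-BHLHE40-Fl. With equal library totals these counts were 14 and 14, and 17 and 18. Between labels 19 were higher and 15 lower in Lyz2Cre-BHLHE40-Fl controls (23 and 12 with equal totals), and 17 higher and 13 lower with LPS (23 and 9 with equal totals). The interaction passed for 11 in the higher and 6 in the lower direction (13 and 5 with equal totals). Median log2 changes of the 52 were 0.644, 0.496, 0.216, 0.199 and -0.0211 in the order of these comparisons. Counts with the deposited scaling are to be read beside the shares of all genes given above. Those with equal totals have no such share. Inha, Bmp4, Bmp6, Bmpr1b and Smad9 passed the filter only through Lyz2Cre-BHLHE40-Fl libraries. Between labels such genes can only add to the higher side.

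Among other ligand genes, 6 of 8 tested were higher and 0 lower in Lyz2Cre-BHLHE40-Fl controls (15.0% and 16.6% of all genes). With LPS 2 were higher and 1 lower (17.7% and 19.8% of all genes). Means in Lyz2Cre-BHLHE40-Fl controls were low for Inha, Inhbb, Bmp4, Bmp6 and Gdf11, at 1.8, 11.3, 14.17, 7.667 and 16.83. Inha, Bmp4 and Bmp6 passed the filter on low values only through the Lyz2Cre-BHLHE40-Fl libraries. A lower value under that label could not have been counted for them, so the counts between labels are no test of direction. Bmp2, a bone morphogenetic protein gene, had means of 50.93 ± 2.71 and 737.4 ± 17.6 (SD, n = 3) in Lyz2Cre and 175.1 ± 9.82 and 355.9 ± 14.2 in Lyz2Cre-BHLHE40-Fl, control first. It rose 14.5-fold in Lyz2Cre and 2.03-fold in Lyz2Cre-BHLHE40-Fl, and the LPS change differed by -2.81 ± 0.15 log2 units (limma adjusted p = 6.6e-10). The level was thus higher in Lyz2Cre-BHLHE40-Fl controls and lower in Lyz2Cre-BHLHE40-Fl LPS than in the matching Lyz2Cre libraries. Gdf15, a stress-induced member of the family, rose 15.1-fold from 130.1 ± 7.37 in Lyz2Cre and 5.13-fold from 342.9 ± 52.1 in Lyz2Cre-BHLHE40-Fl (interaction -1.56 ± 0.18, limma adjusted p = 5.47e-06).

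Of the other receptor genes, 10 were tested. With LPS 6 rose and 1 fell in Lyz2Cre (25.0% and 23.9% of all genes), against 5 and 3 in Lyz2Cre-BHLHE40-Fl (24.9% and 25.6%). Tgfbr3, the co-receptor betaglycan, was low in Lyz2Cre, at 16.93 ± 3.62 in controls and 8.6 ± 0.985 with LPS (SD, n = 3). In Lyz2Cre-BHLHE40-Fl it stood at 232.5 ± 22.7 and 147.4 ± 39.5. The label difference was 13.7-fold in controls (log2 difference 3.72 ± 0.25 SE, limma adjusted p = 1.67e-09) and 17.1-fold with LPS (3.92 ± 0.25, limma adjusted p = 1.04e-09). Tgfb3 and most of the mesothelial and fibroblast markers were also higher in these libraries, though Pdpn, Fn1 and Thy1 were lower; the part of these cells was not tested.

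Latent TGF-beta is held in the matrix and freed by integrins and thrombospondin. Of 10 tested genes of this step, 4 were higher and 4 lower in Lyz2Cre-BHLHE40-Fl controls (15.0% and 16.6% of all genes). Itgb8, the integrin subunit that frees latent TGF-beta, rose 21.1-fold in Lyz2Cre from 47.9 ± 11 and 27.8-fold in Lyz2Cre-BHLHE40-Fl from 98.03 ± 15.0 (SD, n = 3). The label differences were 2.05-fold in controls and 2.7-fold with LPS (limma adjusted p = 1.99e-05 and 4.34e-07). Thbs1, the thrombospondin 1 gene, ran the other way between labels. It had means of 27412.4 ± 4060.0 and 53613.0 ± 4330.0 in Lyz2Cre and 1535.6 ± 167.0 and 10024.4 ± 857.0 in Lyz2Cre-BHLHE40-Fl, being 17.9-fold lower in controls and 5.35-fold lower with LPS (limma adjusted p = 4.56e-15 and 8.35e-12). Its rise in Lyz2Cre (0.98 ± 0.11, limma adjusted p = 3.99e-07) fell to 0.25 with equal library totals (0.0527) and turned to -0.10 with quantile normalization (0.497). Lrrc32, which encodes a docking protein for latent TGF-beta, was 2.65-fold and 4.33-fold higher in Lyz2Cre-BHLHE40-Fl without and with LPS (limma adjusted p = 0.000152 and 3.05e-06). Its Lyz2Cre-BHLHE40-Fl LPS replicates held 179.1, 378.7 and 420.8, and the interaction of 0.60 (limma adjusted p = 0.264) was 0.98 and passed without replicate 1 (0.00532).

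Of 11 tested extracellular or intracellular inhibitors, 7 rose and 2 fell with LPS in Lyz2Cre (25.0% and 23.9% of all genes). In Lyz2Cre-BHLHE40-Fl 7 rose and 1 fell (24.9% and 25.6%). In Lyz2Cre-BHLHE40-Fl controls 1 was higher and 7 lower (15.0% and 16.6% of all genes). Fst encodes follistatin, which binds and blocks activin. It had means of 32.5 ± 8.72 and 266.7 ± 13.0 (SD, n = 3) in Lyz2Cre and 7.6 ± 4.36 and 53.23 ± 3.81 in Lyz2Cre-BHLHE40-Fl. Fst rose 8.21-fold and 7.0-fold with LPS, and the interaction was -0.26 ± 0.45 (limma adjusted p = 0.77). Like Inhba it was lower in Lyz2Cre-BHLHE40-Fl, 4.28-fold in controls and 5.01-fold with LPS (limma adjusted p = 5.36e-05 and 1.43e-05). Skil and Ski encode related SMAD corepressors that moved in opposite directions with LPS. Skil rose 2.82-fold from 5375.4 ± 399.0 in Lyz2Cre and 7.58-fold from 1340.5 ± 109.0 in Lyz2Cre-BHLHE40-Fl, with an interaction of 1.42 ± 0.10 (limma adjusted p = 1.75e-08). Ski fell 3.57-fold and 3.61-fold (limma adjusted p = 1.92e-11 and 1.23e-11).

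Pmepa1, a TGF-beta-induced inhibitor of the pathway, rose further with LPS in Lyz2Cre-BHLHE40-Fl. It had means of 99.63 ± 8.72 and 476.6 ± 20.4 (SD, n = 3) in Lyz2Cre and 19.97 ± 4.09 and 624.0 ± 66.6 in Lyz2Cre-BHLHE40-Fl, control first. It rose 4.78-fold and 31.3-fold (interaction 2.66 ± 0.22, limma adjusted p = 1.05e-07). In controls it was 4.99-fold lower in Lyz2Cre-BHLHE40-Fl (limma adjusted p = 1.99e-09). The interaction of Inhba had the same sign. Klf10, an early target of TGF-beta, fell 3.34-fold with LPS in Lyz2Cre and 1.22-fold in Lyz2Cre-BHLHE40-Fl (interaction 1.45 ± 0.13, limma adjusted p = 2.55e-07). The second value (limma adjusted p = 0.0143) was lost without Lyz2Cre-BHLHE40-Fl control replicate 1 (0.0537) or LPS replicate 2 (0.0798).

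The Id genes, known targets of BMP signals, did not move together. Id1 and Id3 were higher in Lyz2Cre-BHLHE40-Fl controls, 5.06-fold and 6.34-fold, and with LPS, 4.73-fold and 2.32-fold (limma adjusted p at most 5.03e-05). Id1 in the Lyz2Cre-BHLHE40-Fl LPS replicates was 59.7, 121.1 and 130.2, and its log2 difference with LPS of 2.12 was 2.47 without replicate 1. Id2 was lower, 2.37-fold in controls and 2.77-fold with LPS (limma adjusted p = 2.76e-10 and 4.35e-11). Among other SMAD genes and their adaptors 3 of 6 were higher and 0 lower in Lyz2Cre-BHLHE40-Fl, both without and with LPS. Of all genes, 15.0% were higher and 16.6% lower without LPS, and 17.7% and 19.8% with it. Zfyve9, the adaptor that brings SMAD proteins to the receptor, fell 2.07-fold with LPS in Lyz2Cre and 1.31-fold in Lyz2Cre-BHLHE40-Fl, and the interaction of 0.64 ± 0.16 (limma adjusted p = 0.00747) was lost with quantile normalization (0.0833). Smad9 was at 0 in all 3 Lyz2Cre LPS libraries, and its mean in Lyz2Cre-BHLHE40-Fl controls was 20.33 ± 1.89 (SD, n = 3), 12.4-fold above Lyz2Cre controls (limma adjusted p = 7.01e-05). That fold rests on a mean of 1.633 ± 0.802 in Lyz2Cre controls, a few reads per library. Smad9 passed the filter on low values only through the Lyz2Cre-BHLHE40-Fl libraries, so its place among the higher SMAD genes is no test of direction.

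**Figure D3:**
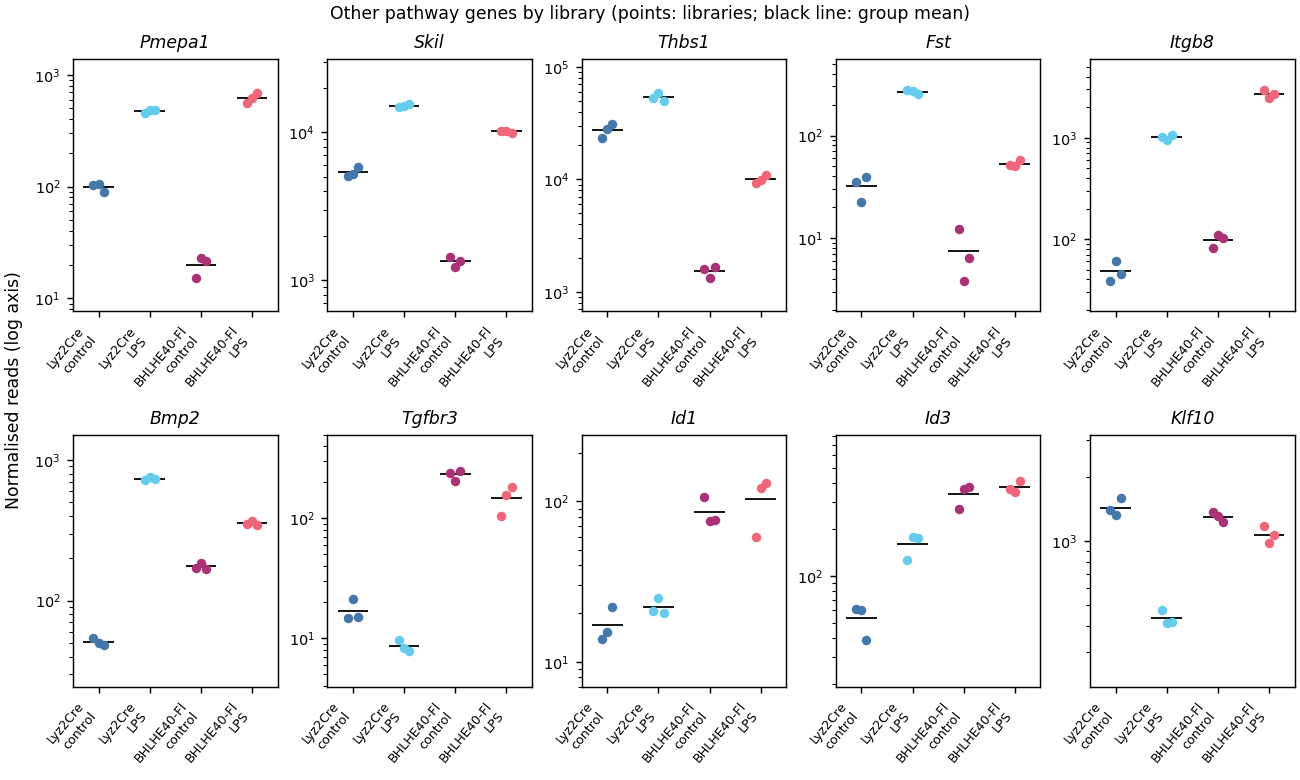
Normalised reads of 10 other pathway genes in the 12 libraries on a log axis, 1 point per library, with a line at each group mean. Pmepa1, Skil, Thbs1 and Fst are lowest in Lyz2Cre-BHLHE40-Fl controls, while Tgfbr3, Id1 and Id3 are higher in the Lyz2Cre-BHLHE40-Fl libraries.

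**Figure D4:**
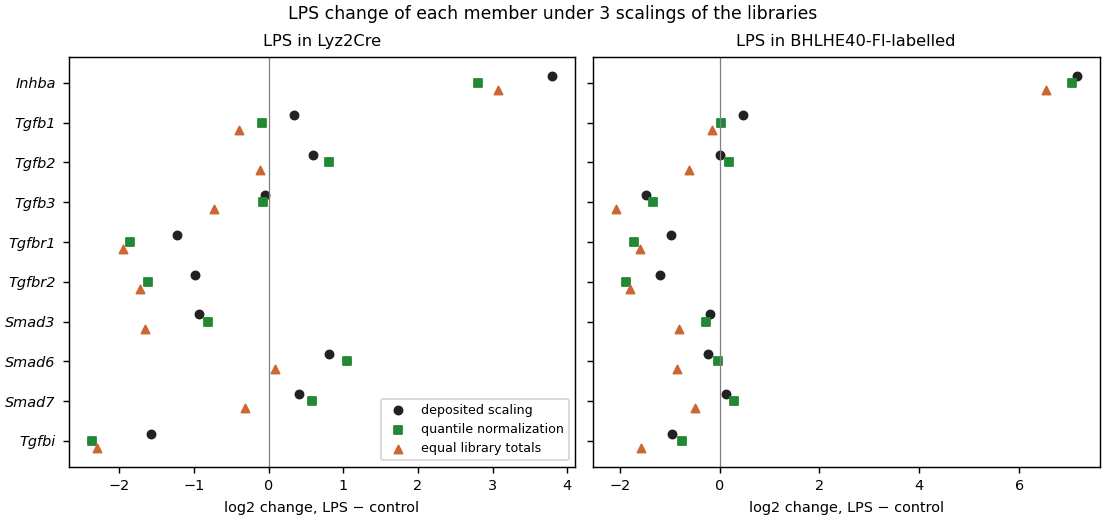
Log2 change with LPS of the 10 members in each genotype label under the deposited scaling, quantile normalization and equal library totals. Equal totals shift all members toward lower values, and Tgfb1, Tgfb2 and Smad7 cross 0 in Lyz2Cre (0.34 to -0.39, 0.60 to -0.12 and 0.41 to -0.31), while Inhba, Tgfbr1, Tgfbr2 and Tgfbi keep their direction under the 3 scalings in both labels.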

How the data were processed

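The 12 libraries were grouped by their genotype and treatment labels. The deposited unit is a signal, as read from the numbers: they are whole reads of each gene over a library factor, rounded to 1 decimal, and no source records this step. Up to 1 common factor, the library factors were 0.996 to 1.008 times median-of-ratios size factors recomputed from the recovered reads. That method centres the median gene ratio between libraries, so all-gene median changes near 0 are built into the deposited scaling. With a tolerance of 0.06, 100% of values were whole multiples of 1 read, worth 0.725 to 1.56, and 0 columns lacked a sample. Per the submitters' processing notes, STAR, Cufflinks, Cuffdiff and the build mm10 were used, in roles not given. The read counter, its strand setting and its gene models were not in the sources used here. Of the identifiers, 53274 are in GENCODE M21, which gave positions and merged exons.

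Genes at 1 or more in at least 3 libraries were tested with limma 3.58.1 (R 4.3.3), a trend model of log2(value + 1) with 1 mean per group over all 12 libraries and no rescaling. The contrasts were LPS within each genotype label, genotype label within each treatment, and the interaction. Replicates differed beyond sampling noise (chi-square per degree of freedom 7.35 to 72.2 over 12 pairs), so none was merged. In Lyz2Cre-BHLHE40-Fl LPS the value was 72.16 for replicates 1 and 2, 38.44 for 2 and 3 and 33.52 for 1 and 3. By this measure replicate 1 was not singled out, unlike in its share of mitochondrial reads. Alternatives were other pseudocounts, filters, scalings and variances, the compared groups alone, a replicate block, each library left out, and edgeR 4.0.16 with quasi-likelihood tests on recovered reads, which called 7, 6, 5, 8 and 6 members in the 5 contrasts.

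The members, the 60 other genes, the marker lists and the tests were chosen with earlier results of these data known. Other pathway genes were named by a rule: per contrast up to 4 per direction with the largest change among genes that passed, changed at least 2-fold without overlap and had a mean of at least 20 in 1 group. Not every eligible gene is described, and 1 is not reported here. Of the remaining marker lists, large peritoneal macrophage genes were 3 higher and 5 lower of 11 in Lyz2Cre-BHLHE40-Fl controls, T cell genes 0 and 5 of 6, B cell genes 0 and 0 of 5, neutrophil genes 0 and 3 of 3 tested and mast cell genes 0 and 2 of 6. With LPS these counts were 3 and 4, 1 and 5, 0 and 1, 0 and 3, and 0 and 2. All marker counts are to be read beside the shares of all genes in the same comparisons. Some genes, among them Cd3e, Cd3g, Cd8a, Ngp, Mcpt4 and Fcer1a, passed the filter only through Lyz2Cre libraries. Between labels these could only count as lower. Promoter windows come from RefSeq (GRCm38.p6).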

Additional observations from a re-analysis of the deposited data

Results flagged for a closer look

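The interaction test found 4 members whose LPS change differed between genotype labels, each value being the log2 LPS change in Lyz2Cre-BHLHE40-Fl minus that in Lyz2Cre. Of all tested genes, 18.8% passed this test (9.52% higher and 9.31% lower). For Inhba it was 3.36 (limma adjusted p = 1.12e-07), the activin subunit gene having risen in all 6 LPS libraries. The log2 rise was larger in Lyz2Cre-BHLHE40-Fl, but from a mean of 59.83 to 8362.2, against 6579.9 to 90151.8 in Lyz2Cre. For Smad3 it was 0.72 (limma adjusted p = 0.0025). With the deposited scaling Smad3 fell in Lyz2Cre, while its change of -0.2 in Lyz2Cre-BHLHE40-Fl did not pass (limma adjusted p = 0.132). For Smad6 it was -1.04 (limma adjusted p = 0.0121), the rise in Lyz2Cre with the deposited scaling having no counterpart that passed in Lyz2Cre-BHLHE40-Fl. With equal library totals Smad6 changed by 0.09 in Lyz2Cre (limma adjusted p = 0.751) and fell by -0.85 in Lyz2Cre-BHLHE40-Fl (limma adjusted p = 0.00147). For Tgfbi it was 0.61 (limma adjusted p = 0.0301), a smaller log2 fall from a far lower level, and it was lost when any 1 of 5 libraries was left out.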

How the results depend on the processing

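Over 50 member results and 22 alternatives, 1028 of 1100 values kept their direction and their side of the threshold, 22 no longer passed, 23 newly passed and 27 turned. The cause of these changes was not tested. Several alternatives could not turn a difference between 2 groups, because they leave both group means as they are. These were the filters, robust variances, the compared groups alone, the replicate block and leaving out a library of another group. With equal library totals the log2 changes that turned were, for LPS in Lyz2Cre, Tgfb1 -0.39, Tgfb2 -0.12 and Smad7 -0.31. For LPS in Lyz2Cre-BHLHE40-Fl they were Tgfb1 -0.15, Tgfb2 -0.62 and Smad7 -0.50. For genotype they were Tgfb1 0.12 in controls and Tgfbr2 0.25 and Bhlhe40 0.14 with LPS. Of the members among these, both Smad7 values, Tgfb2 at -0.62 and Tgfbr2 passed in the new direction. With quantile normalization Tgfb1 was -0.09 for LPS in Lyz2Cre and 0.10 for genotype in controls, and Tgfbr2 and Bhlhe40 were 0.11 and 0.0035 for genotype with LPS. Quantile normalization called 8 members for genotype in controls, against 5. Tgfb2 for LPS in Lyz2Cre-BHLHE40-Fl was -6.4e-05 with a pseudocount of 0.1 and -0.04 with edgeR. Leaving out 1 library at a time gave Tgfb3 -0.47 to 0.40 for LPS in Lyz2Cre, Tgfb2 -0.12 to 0.17 for LPS in Lyz2Cre-BHLHE40-Fl, and Tgfb1 -0.18 to 0.04, -0.08 to 0.35 and -0.02 to 0.41 for genotype in controls, genotype with LPS and the interaction. The members called ranged over 7 to 9, 5 to 6, 4 to 6, 8 to 9 and 3 to 5 in the 5 contrasts. Same-numbered libraries did not deviate together (r from -0.0664 to 0.0277 over 18 pairs), so the labels' numbers were not read as a pairing. The replicate block called 8, 6, 5, 8 and 4 members and 38, 33, 32, 29 and 16 other pathway genes. Tgfb3 in Lyz2Cre, at 7.8 to 23.5 normalised reads, rests on few reads per library.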

Other observations

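Activin acts through its own receptors, and the genes of this arm were read after their values had been seen, outside the rule for named genes. Acvr1b, the activin type I receptor gene, rose with LPS where Tgfbr1 fell, from 1195.8 ± 92.2 to 2016.6 ± 98.1 normalised reads in Lyz2Cre and from 1201.9 ± 22.0 to 2345.0 ± 29.2 in Lyz2Cre-BHLHE40-Fl (SD, n = 3). The log2 changes were 0.76 and 0.96 (limma adjusted p = 4.6e-08 and 1.54e-09), and 0.03 and 0.35 with equal library totals (limma adjusted p = 0.793 and 0.000575). Acvr2a, an activin type II receptor gene, changed by 0.65 and 0.38 (limma adjusted p = 0.000291 and 0.0171), and by -0.08 and -0.24 with equal library totals. The second value was lost without Lyz2Cre-BHLHE40-Fl control replicate 2 or LPS replicate 3 (limma adjusted p = 0.106 and 0.0653). Acvr2b, the other activin type II receptor gene, did not pass, at 0.37 and -0.42 (limma adjusted p = 0.376 and 0.306); with equal library totals the first was -0.33 (0.418) and the second -1.02 and passed (0.0112). Furin, the protease that cleaves the precursors of activin and TGF-beta, rose 5.99-fold in Lyz2Cre and 6.42-fold in Lyz2Cre-BHLHE40-Fl (limma adjusted p = 1.03e-08 and 9.95e-09), and its level was 1.93-fold lower in Lyz2Cre-BHLHE40-Fl controls. With LPS the log2 difference was -0.94 (limma adjusted p = 0.00188) and -0.55 without Lyz2Cre-BHLHE40-Fl LPS replicate 1 (0.000728), which held 5973.3 against 13215.6 and 13646.1.

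Itgav, the integrin subunit that pairs with the product of Itgb8, had means of 6682.3 ± 555.0 and 9727.4 ± 974.0 (SD, n = 3) in Lyz2Cre and 4627.0 ± 258.0 and 18304.6 ± 2890.0 in Lyz2Cre-BHLHE40-Fl. Its LPS change in Lyz2Cre was 0.54 and passed (limma adjusted p = 0.000279). The change was -0.19 with equal library totals (limma adjusted p = 0.128). With quantile normalization it passed in the opposite direction, at -0.40 (limma adjusted p = 0.00229). In Lyz2Cre-BHLHE40-Fl it rose by 1.97 (limma adjusted p = 1.76e-11), and the interaction was 1.43 ± 0.15 (limma adjusted p = 1.52e-06).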
